A study of Mus musculus with 4 samples.

Results

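The secreted Wnt modulators described here are the genes Sfrp1, Sfrp2, Sfrp4, Frzb, Wif1 and Wnt5a, taken as every probe set annotated to a single one of these symbols. The array carried 5 of the 6 genes, each with 1 probe set, out of 8251 genes and 12422 non-control probe sets. Sfrp1 lies on chromosome 8, Sfrp2 on 3, Sfrp4 on 13, Frzb on 2 and Wnt5a on 14. No probe set was annotated to Wif1 alone, and Wif1 was dropped. The samples were mouse embryonic fibroblasts (MEFs), cultured connective tissue cells. There were 4 groups: Xiap knockout cells given 20 ng/ml TNF for 4 hours, unstimulated Xiap knockout cells, wild-type cells given the same TNF treatment, and unstimulated wild-type cells. Xiap encodes an inhibitor of caspases, and TNF is an inflammatory cytokine. The cells were confluent when stimulated, and the labels give no strain, age, sex, line or clone for either genotype. Each group was measured on 1 Affymetrix U74Av2 array, so no group has replicates, and precision is limited by how few arrays there are.

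Wnt proteins are secreted lipid-modified signals that bind Frizzled receptors together with coreceptors of the Lrp or Ror families. Secreted Frizzled-related proteins (encoded by Sfrp1, Sfrp2, Sfrp4 and Frzb, the last also called Sfrp3) carry a cysteine-rich domain like that of Frizzled receptors and can bind Wnt proteins outside the cell, which limits or redistributes the signal. Wif1 encodes another secreted Wnt-binding inhibitor. Wnt5a encodes a Wnt ligand that acts mostly without beta-catenin and shapes limb and other mesenchyme in the embryo. Embryonic mesenchyme, from which MEFs derive, expresses these genes in regional patterns.

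All signals are on a linear intensity scale and are comparable between arrays for 1 probe set, not between genes. Signals at or below 92.5, the 40th percentile of all non-control signals, were raised to that floor before log2 ratios were taken, and where 1 side of a ratio was floored the words "at least" stand before its fold. Probe sets above the floor numbered 7456 and 7562 in TNF-treated and unstimulated knockout cells, and 7115 and 7678 in TNF-treated and unstimulated wild-type cells. Of 11 fibroblast and mesenchyme marker genes on the array, 10 were above the floor on all 4 arrays, and the summed signal of all 11 was 75150 to 79279 in knockout and 76705 to 80163 in wild-type cells. Most of that sum came from Col1a1, Col1a2, Col3a1 and Postn, and 3 of the 11 were called between genotypes in the limma fit: Thy1 (effect -2.26, adjusted p = 0.00172) and Pdgfrb (-0.79, adjusted p = 0.0163) fell, and S100a4 (1.68, adjusted p = 0.000218) rose. Xiap was dim on every array (brightest probe set 120 and 180 in TNF-treated and unstimulated knockout cells, against 126 and 239 in the wild-type cells) and does not check the labels, because the sources used here do not say which part of the gene was deleted. The X-inactivation transcript Xist had signals of 1601 and 1232 in TNF-treated and unstimulated knockout cells, against 5.40 and 34.3 in wild-type cells, and the Y-linked Eif2s3y had 9.10 and 2.80 against 308 and 489. Genotype cannot be told apart from any other difference between the cultures, including the one these sex-linked transcripts show.

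The Frizzled-related genes differed strongly between the genotypes, and not all in the same direction. Sfrp2 was 14.6-fold higher in unstimulated and 16.3-fold higher in TNF-treated knockout cells than in wild-type cells in the same state. Sfrp1 was 3.69-fold and 4.39-fold lower in the same comparisons. Frzb was lower by at least 14.2-fold without TNF and by at least 16.5-fold under TNF. For Sfrp4 these bounds were 4.85-fold and 2.84-fold. Wnt5a was dim in every culture and did not pass 2-fold.

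**Figure D1:**
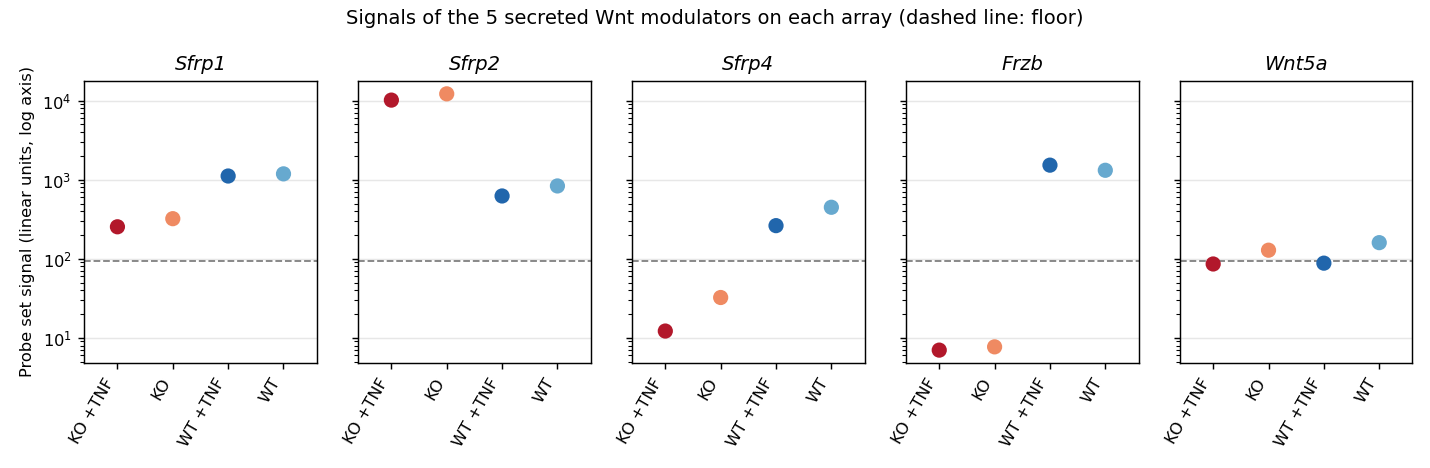
Probe set signal (linear units on a log axis) of each gene on the 4 arrays, with TNF-treated and unstimulated knockout (KO) cells left of TNF-treated and unstimulated wild-type (WT) cells; each point is 1 array and the dashed line is the floor of 92.5. Sfrp2 stood at 10166 and 12198 in the knockout cultures and at 623 and 835 in the wild-type cultures, whereas Sfrp1, Sfrp4 and Frzb were lower in both knockout cultures.

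Sfrp2 gave signals of 10166 in TNF-treated and 12198 in unstimulated knockout cells, against 623 in TNF-treated and 835 in unstimulated wild-type cells. Both knockout arrays lay far above both wild-type arrays, and within each genotype the TNF-treated culture was the lower one. In rank, the log2 ratio of Sfrp2 was the 16th highest of 8060 measured probe sets without TNF and the 11th highest of 7754 under TNF. Its signal exceeded that of 99.4% of non-control probe sets in unstimulated knockout cells and that of 80.6% in unstimulated wild-type cells. In an additive model of genotype and TNF over the 4 arrays, fitted with limma to all 8228 measured probe sets, Sfrp2 rose by 3.95 on the log2 scale in the knockout (SE 0.10, 95% interval 3.71 to 4.18, Benjamini-Hochberg adjusted p = 1.05e-05).

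Frzb gave signals of 7.0 in TNF-treated and 7.7 in unstimulated knockout cells, against 1529 in TNF-treated and 1317 in unstimulated wild-type cells. It was well above the floor in wild-type cells, brighter than 87.8% of non-control probe sets without TNF, and below the floor in both knockout cultures. Its floored log2 ratio was the 12th lowest of 8060 probe sets without TNF and the 5th lowest of 7754 under TNF. The limma fit gave a genotype effect of -3.94 (SE 0.20, adjusted p = 0.000113), a value set by the floor because both knockout arrays are at it.

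Sfrp1, whose product binds Wnt proteins and also Frizzled receptors, gave signals of 254 in TNF-treated and 322 in unstimulated knockout cells, against 1115 in TNF-treated and 1187 in unstimulated wild-type cells. All 4 arrays were above the floor, so these folds are not bounds. Sfrp1 fell by 2.01 on the log2 scale in the limma fit (SE 0.17, adjusted p = 0.000885).

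Sfrp4 gave signals of 12.2 in TNF-treated and 32.4 in unstimulated knockout cells, both below the floor, against 263 in TNF-treated and 449 in unstimulated wild-type cells. The wild-type signals were moderate, so the bound on the fold is weaker than for Frzb. The fitted genotype effect was -1.89 (SE 0.26, adjusted p = 0.00488). With the floor at the 60th percentile the effect of Sfrp4 was -0.31 with an adjusted p of 0.211, since its wild-type signal under TNF is then also at the floor.

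Wnt5a gave signals of 86.0 in TNF-treated and 129 in unstimulated knockout cells, against 88.1 in TNF-treated and 160 in unstimulated wild-type cells. Both TNF-treated cultures were below the floor and both unstimulated cultures just above it, so no fold is given under TNF. The fitted genotype effect was -0.16 (SE 0.18, 95% interval -0.60 to 0.29, adjusted p = 0.607 in limma), and an absence of a difference is not shown by this p.

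Of the 5 genes, 1 rose and 3 fell in the knockout in the limma fit at an adjusted p below 0.05, where 10.2% of all 8228 probe sets rose and 9.18% fell. By fold, 1 gene passed 2-fold upward and 3 downward without TNF, against a background of 4.53% higher and 4.58% lower. The counts were the same under TNF, where Wnt5a was not measured and the background was 5.83% higher and 4.97% lower. The same 4 genes passed 2-fold in the same direction in both states, which held for 2.83% of probe sets on the higher and 2.76% on the lower side. The median genotype effect was -1.89 over these 5 genes and 0.02 over all probe sets. The genes were chosen with earlier results of these data known, so these counts and medians describe them and test nothing about the set. The fit has 1 residual degree of freedom per probe set and 5.37 prior degrees of freedom, so its p-values rest mostly on the spread pooled over probe sets and have no replicate cultures behind them.

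**Figure D2:**
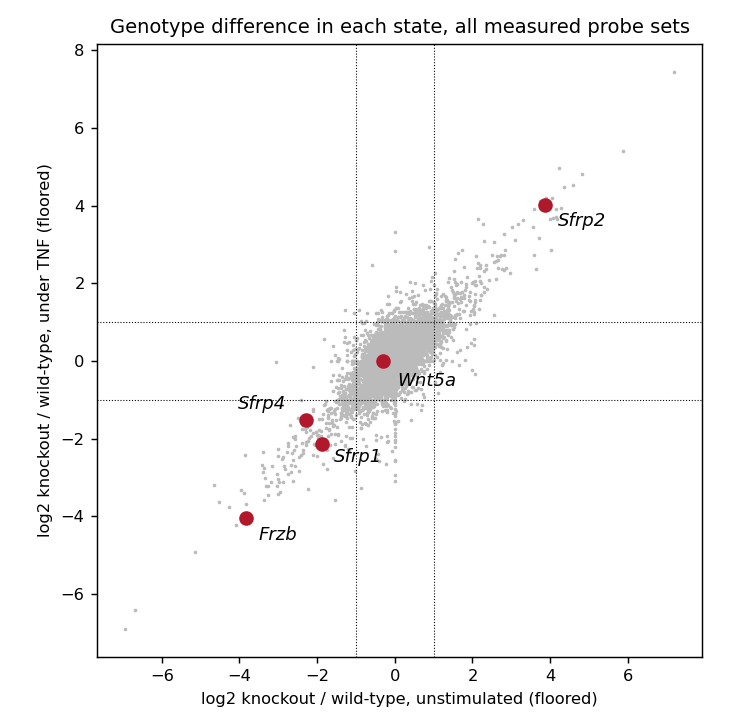
Log2 ratio of knockout to wild-type signal on floored values, unstimulated (horizontal axis) and under TNF (vertical axis); grey points are the 8228 measured probe sets, red points the 5 genes, and dotted lines mark 2-fold. Sfrp2 lies at 3.87 and 4.03, Frzb at -3.83 and -4.05, Sfrp1 at -1.88 and -2.13, Sfrp4 at -2.28 and -1.51, and Wnt5a at -0.32 without TNF and at 0 under TNF because both arrays were floored.

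The promoters of the genes with the largest differences in opposite directions, Sfrp2 and Frzb, are shown for reference as RefSeq windows of 250 bases before to 50 after the transcription start (build GRCm38.p6, 5′ to 3′ on the gene's strand). The Sfrp2 window is chr3:83766071-83766370 on the plus strand and the Frzb window chr2:80447347-80447646 on the minus strand. Capitals mark matches, on either strand, to the TCF/LEF core (CTTTGA or CTTTGT), the NF-kB consensus, the TATA motif (TATAAA) or the GC box (GGGCGG). None of these motifs overlap in the sequences shown.
Sfrp2: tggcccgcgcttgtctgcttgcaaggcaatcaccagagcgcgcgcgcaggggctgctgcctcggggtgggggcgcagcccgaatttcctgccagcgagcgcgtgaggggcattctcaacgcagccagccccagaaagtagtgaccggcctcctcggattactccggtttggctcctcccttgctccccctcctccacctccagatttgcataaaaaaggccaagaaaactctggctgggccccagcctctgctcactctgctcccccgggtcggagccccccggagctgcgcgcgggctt
Frzb: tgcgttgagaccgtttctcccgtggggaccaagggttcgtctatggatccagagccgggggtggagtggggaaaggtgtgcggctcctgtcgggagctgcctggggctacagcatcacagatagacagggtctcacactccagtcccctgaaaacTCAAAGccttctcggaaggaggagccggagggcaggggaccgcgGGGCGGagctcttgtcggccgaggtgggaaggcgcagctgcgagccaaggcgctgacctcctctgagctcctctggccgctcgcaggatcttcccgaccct

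The Frzb window held 1 TCF/LEF core match, TCAAAG, ending at base -90 from the start, and 1 GC box match ending at base -46. The letters of none of the 4 motifs were present in the Sfrp2 window. Among all 32851 promoter windows of this length, 31.2% held a TCF/LEF core, 35.7% a GC box, 13.6% TATAAA and 2.46% the NF-kB consensus. Both windows were rich in G and C, at 66.0% for Sfrp2 and 64.7% for Frzb against a median of 52.7%, with 22 and 20 CpG dinucleotides against a median of 7. Letter matches do not show binding or use of a site.

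None of the 5 genes passed 2-fold with TNF in either genotype. By comparison, 1.97% of 7764 probe sets passed in knockout and 5.33% of 7846 in wild-type cells. None of the 5 had an adjusted p below 0.05 for TNF in limma (background 1.17% in either direction), although Sfrp2 and Wnt5a had an unadjusted p below 0.05. Of all 8228 probe sets, 1125 had an unadjusted p below 0.05 for TNF in limma. In knockout cells the log2 ratio of TNF-treated to unstimulated signal was -0.26 for Sfrp2, -0.34 for Sfrp1 and -0.47 for Wnt5a, the last a bound, while Sfrp4 and Frzb were below the floor in both states. In wild-type cells it was -0.42 for Sfrp2, -0.09 for Sfrp1, -0.77 for Sfrp4, 0.22 for Frzb and -0.79 for Wnt5a, the last again a bound. With the medians of the arrays made equal, the ratio in wild-type cells was 0.19 for Sfrp1 and -0.14 for Sfrp2.

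The fitted TNF effect of Wnt5a was -0.63 (SE 0.18, 95% interval -1.08 to -0.19, unadjusted p = 0.0128, limma adjusted p = 0.228), with the lower signal in the TNF-treated culture of both genotypes. Sfrp2 followed the same direction in both genotypes, with an effect of -0.34 (SE 0.10, unadjusted p = 0.0115, limma adjusted p = 0.221). The adjusted p was 0.581 for Sfrp1, 0.532 for Sfrp4 and 0.837 for Frzb. With the medians of the arrays made equal, the effect was -0.18 for Sfrp2 and -0.5 for Wnt5a (limma adjusted p = 0.828 and 0.159). The TNF effect of Sfrp4 depended on the floor, at -0.39 as reported, -0.72 with the floor at the 20th percentile and -1.05 without a floor, where that of Wnt5a was -0.71. The median TNF effect was -0.34 over the 5 genes and -0.08 over all probe sets. No gene had a response that differed 2-fold between the genotypes (background 3.91%), and none did without a floor. Only Sfrp1 and Sfrp2 were above the floor on all 4 arrays. The knockout signals of Sfrp4 and Frzb and the TNF signals of Wnt5a were floored, which limits the difference for these genes. The log2 response in knockout minus that in wild-type cells was -0.25 for Sfrp1 and 0.16 for Sfrp2 (-0.07 with equal medians), and with 1 array a group this difference has no test. For Sfrp4 it was 0.77 on floored values and -0.57 without a floor, so its direction depends on the floor.

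**Figure D3:**
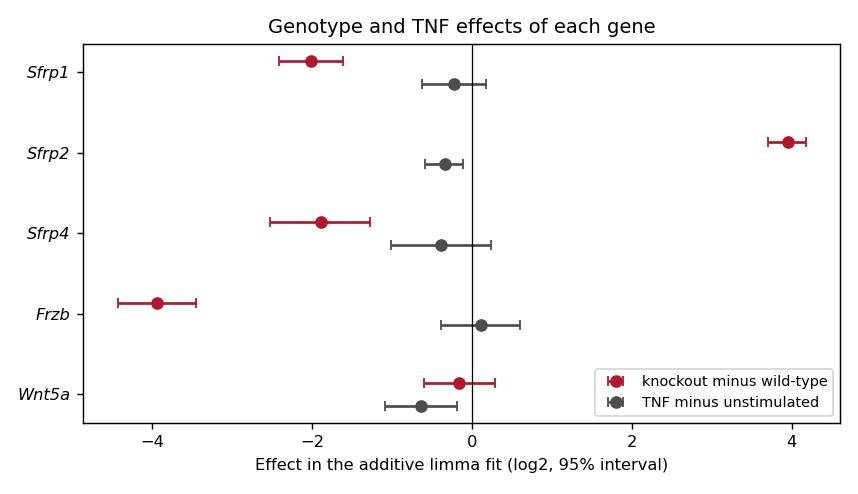
Effects of each gene in the additive limma fit over the 4 arrays (log2, with 95% intervals), knockout minus wild-type in red and TNF minus unstimulated in grey. The genotype effects range from -3.94 for Frzb to 3.95 for Sfrp2, and all TNF effects lie between -0.63 and 0.11; effects of Sfrp4, Frzb and Wnt5a depend on the floor.

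Across the 4 conditions, the levels of Sfrp2 ran from unstimulated knockout through TNF-treated knockout and unstimulated wild-type to TNF-treated wild-type cells, and the only neighbours past 2-fold were the knockout and wild-type cultures. For Sfrp1 the order was unstimulated wild-type, TNF-treated wild-type, unstimulated knockout and TNF-treated knockout cells, again with the step past 2-fold at the change of genotype. Frzb was highest in TNF-treated wild-type cells, 1.16-fold above unstimulated wild-type cells, and Sfrp4 was highest in unstimulated wild-type cells, with the TNF-treated culture 1.71-fold lower. Neither neighbouring pair was past 2-fold. Wnt5a was highest in unstimulated wild-type cells, followed by unstimulated knockout cells, and the TNF-treated cultures, both below the floor, have no order. No step was past 2-fold.

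The genes with the nearest profiles were sought for the 4 Frizzled-related genes, as the range of Wnt5a was under 2-fold. Likeness was the root mean square distance between log2 profiles over the 4 arrays, each centred on its own mean. Nearest to Sfrp2 were Anxa8 (distance 0.0836), the Dickkopf family gene Dkk3 (0.16) and Pitx1 (0.165), a transcription factor gene of the hindlimb. Nearest to Sfrp1 were the amino acid transporter gene Slc7a3 (0.0659), Apbb1ip (0.068) and Eng (0.0788), which encodes the TGF-beta coreceptor endoglin. Nearest to Frzb were the cell cycle inhibitor gene Cdkn2b (0.112), the collagen gene Col8a1 (0.142) and Mgst1 (0.29). Nearest to Sfrp4 were the body-axis patterning genes Hoxb9 (0.00491) and Hoxb6 (0.0318) and the natriuretic peptide receptor gene Npr3 (0.0605). Hoxb9 and Npr3, like Sfrp4, and Cdkn2b and Mgst1, like Frzb, were below the floor on both knockout arrays, so their distances rest on the 2 wild-type arrays and the floor. The wild-type signals of Hoxb9 were 265 with and 450 without TNF. With 4 arrays, of which the genotype sets most of the spread, such closeness describes these cultures only.

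The rest of the Wnt pathway was read from 7 lists that together held 86 further genes on the array, each represented by its brightest probe set. Of the 68 measured, 7 rose and 8 fell in the knockout in the limma fit, which is 10.3% and 11.8% and near the background of 10.2% and 9.18%. Their median genotype effect was 0.02, equal to that of all probe sets. Shares this near the background are no result about the lists. The counts of single lists below have the same background, and no list was tested as a set. Of the 15 genotype calls, 10 held under every alternative tried.

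Among 9 other secreted modulators on the array, 5 were measured, of which 2 rose and 2 fell in the limma fit. Dkk3, a divergent member of the Dickkopf family of secreted Wnt regulators, had signals of 4253 in TNF-treated and 5668 in unstimulated knockout cells, against 283 in TNF-treated and 472 in unstimulated wild-type cells. Its rise of 3.75 on the log2 scale (SE 0.13, adjusted p = 3.65e-05) was close in size to that of Sfrp2. Igfbp4, an insulin-like growth factor binding protein gene whose product can also inhibit Wnt signalling, had signals of 4033 and 4525 in TNF-treated and unstimulated knockout cells, against 724 and 981 in wild-type cells in the same order. It rose by 2.34 (SE 0.11, adjusted p = 8.78e-05), while another of its probe sets gave 0.76 with an adjusted p of 0.0858 and the last was below the floor on all 4 arrays. Rspo2, a secreted enhancer of Wnt signalling (effect -0.96, adjusted p = 0.0082), and Serpinf1 (-0.55, adjusted p = 0.00901) fell in the limma fit. They are named after their values were seen, as the remaining calls of that list. The call of Serpinf1 was lost with equal medians (adjusted p = 0.094) and without an intensity trend (0.0808). Dkk1, Cer1, Rspo1 and Ndp were below the floor on every array.

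**Figure D4:**
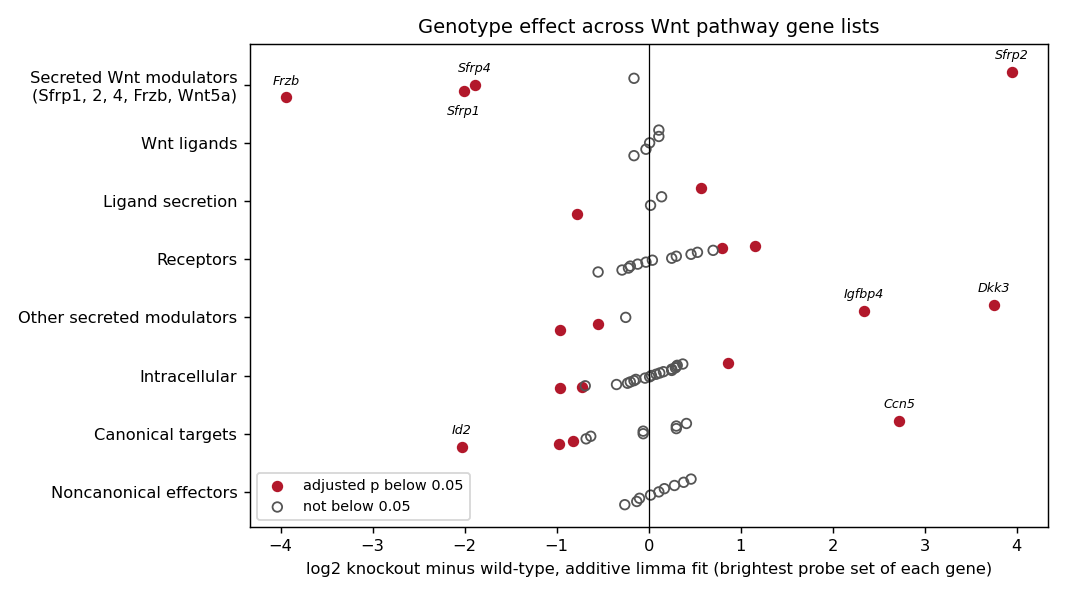
Genotype effect (log2, knockout minus wild-type, additive limma fit) of the 5 genes in the top line and of the measured genes of 7 Wnt lists below; filled points have an adjusted p below 0.05. The effects of Frzb, Sfrp2 and Dkk3 are larger than 3 in size, and in the lists Dkk3, Igfbp4, Ccn5 and Id2 are the genes past 1.5.

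Of 13 other Wnt ligand genes on the array, 8 were below the floor everywhere and none of the 5 measured was called for genotype or TNF in the limma fit. Wnt3, Wnt3a and Wnt5b were above the floor on 1 array only, so the floor kept their effects small. Wnt5b had signals of 108 and 89.6 in TNF-treated and unstimulated knockout cells, against 18.2 and 18.3 in wild-type cells. Its fitted genotype effect was 0.11, so the missing calls do not show an absence of change. Wnt1 was the 1 ligand above the floor on all 4 arrays, with signals of 96.8 in TNF-treated and 190.0 in unstimulated knockout cells, against 141 and 129 in the wild-type cells. Wls, which carries Wnt proteins to the cell surface, rose in the knockout (effect 0.57, limma adjusted p = 0.035), a call lost with equal medians (adjusted p = 0.109) and without an intensity trend (adjusted p = 0.128). The proteoglycan gene Gpc4 fell by 0.78 (limma adjusted p = 0.0056).

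Of 14 measured receptor genes 2 rose in the knockout in the limma fit and none fell (background 10.2% and 9.18%). Fzd8 had signals of 537 in TNF-treated and 878 in unstimulated knockout cells, against 303 in TNF-treated and 310 in unstimulated wild-type cells, a rise of 1.16 (SE 0.22, adjusted p = 0.016). Fzd2 rose by 0.80 (SE 0.13, adjusted p = 0.0091) and also fell with TNF, by 0.91 (SE 0.13, adjusted p = 0.0377). Its signals were 1944 in TNF-treated and 3146 in unstimulated knockout cells, and 960.4 and 2096 in the wild-type cells. Both calls of Fzd2 were lost without an intensity trend, at adjusted p of 0.0549 for genotype and 0.235 for TNF. With TNF 1.08% of all probe sets rose and 0.0851% fell in this fit.

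Among 21 measured intracellular components, Ctbp2, a corepressor gene, rose (effect 0.86, limma adjusted p = 0.0112), and the scaffold gene Dvl2 (-0.96, adjusted p = 0.00498) and the kinase gene Csnk1e (-0.73, adjusted p = 0.0345) fell. Csnk1e was named after its values were seen, and its call was lost without an intensity trend (adjusted p = 0.0689). None of 9 measured noncanonical effector genes was called by limma for either effect, the largest being Nfatc1 at 0.46 (adjusted p = 0.176) for genotype and Ppp3ca at 0.44 (adjusted p = 0.166) for TNF.

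Of 11 measured genes of the canonical target list, 1 rose and 3 fell in the knockout in the limma fit. Ccn5, also called Wisp2, which encodes a secreted matrix protein, had signals of 1638 in TNF-treated and 2149 in unstimulated knockout cells, against 249 in TNF-treated and 325 in unstimulated wild-type cells. It rose by 2.72 (SE 0.14, adjusted p = 0.000113). Id2, an inhibitor of helix-loop-helix factors that also answers to BMP signals, had signals of 114 in TNF-treated and 279 in unstimulated knockout cells, against 383 in TNF-treated and 1384 in unstimulated wild-type cells. It fell by 2.03 with genotype (limma adjusted p = 0.00254) and by 1.57 with TNF (adjusted p = 0.0377). Twist1 (-0.82, adjusted p = 0.0104) and Ccn2 (-0.97, adjusted p = 0.0379) also fell with genotype in the limma fit, and are named after their values were seen. The call of Ccn2 was lost without an intensity trend (adjusted p = 0.0903). The AP-1 gene Fosl1 had signals of 411 in TNF-treated and 149 in unstimulated knockout cells, against 572 in TNF-treated and 116 in unstimulated wild-type cells. With TNF it rose by 1.88 (limma adjusted p = 0.0378). The TNF calls of Id2 and Fosl1 were lost with the floor at the 60th percentile (adjusted p = 0.312 and 0.0818) and without an intensity trend (0.115 and 0.118). Cd44, a cell surface receptor gene, was 2-fold or more higher with TNF in both genotypes without passing the limma threshold for TNF (effect 1.35, adjusted p = 0.0508). Axin2, a feedback gene often read as a marker of canonical Wnt signalling, had signals of 80.3 and 83.0 in TNF-treated and unstimulated knockout cells, against 45.6 and 101 in the wild-type cells, close to or below the floor throughout. It was named for that use, after its values were seen.

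Markers of other cell types moved with genotype in some lists. The summed signal of 4 adipocyte markers was 183 and 150 in TNF-treated and unstimulated knockout cells, against 930 and 1359 in the wild-type cells. Lpl made up most of the wild-type sums (667 and 977). Lpl and Fabp4 fell in the limma fit, Pparg was not called (effect -0.68, adjusted p = 0.0778), and Adipoq was below the floor on all 4 arrays. The summed signal of 4 neural and crest markers was 4815 and 3793 in knockout cells, against 2797 and 2275 in wild-type cells, with Nes and Tubb3 called higher. Tubb3 made up most of that sum, and the other markers of the list, Sox10 (effect -0.22) and Gfap (-0.11), were not called. Gfap was above the floor on 1 array only, which limits its effect. Among 5 chondrocyte markers Acan was called higher, Col9a1 was above the floor on all 4 arrays with an effect of -0.05 (limma adjusted p = 0.883), and Col2a1, Matn1 and Col11a2 were below the floor on all arrays. No osteoblast, myogenic, epithelial, endothelial or myeloid marker was called between genotypes in the limma fit. Of those on the array, only 1 of 3 osteoblast, 3 of 6 myogenic and 1 of 6 epithelial markers were measured. For endothelial and myeloid markers it was 2 of 5 and 3 of 6. The rest were below the floor on all 4 arrays and could not be called in that fit. Over all probe sets 10.2% rose and 9.18% fell in that fit. The part of these cell types in the differences of the Frizzled-related genes was not tested. In such bulk samples fewer cells of a type cannot be told apart from less RNA per cell.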

How the data were processed

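Total RNA of cultured mouse embryonic fibroblasts was measured on 4 single-colour Affymetrix arrays, 1 per group, grouped by sample title. The deposited values are linear probe set intensity values which, per the submitters' processing notes, came from MAS5. Neither its version nor detection calls were given in the sources used here. All arrays share a trimmed mean of 499.9, so they had been scaled before deposit. Of 12422 non-control probe sets, 10833 had 1 gene symbol, 396 several and 1193 none in the platform's annotation table; 8237 of 8251 genes matched RefSeq by Entrez identifier.

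Signals were floored at 92.5 and converted to log2. Probe sets above the floor on at least 1 array compared were used, and 2-fold differences were counted. An additive model (genotype and TNF) was fitted to 8228 probe sets with limma 3.58.1 in R 4.3.3 (lmFit, then eBayes with a trend on intensity; 2-sided p-values, Benjamini-Hochberg adjusted, threshold 0.05); it takes a true difference of response as error. The fit was also run on 20 simulated data sets, whose outcome is not reported here. These were additive, with normal noise and no floor. They cannot test how the fit handles a difference of response, floored signals or spread between cultures. With 1 array per group nothing shows the spread between cultures.

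The named genes were all probe sets of the 6 genes; per Wnt list, up to 4 genes past 2-fold in both states or both genotypes, otherwise the 2 largest above the floor on all arrays; and the 3 nearest profiles of each gene with a 2-fold range. Members, lists and tests were chosen with earlier results of these data known. The alternatives were floors at the 20th and 60th percentile, no floor (log2 of signal plus 1), 2 scalings (equal medians, quantile), 1 probe set per gene, no intensity trend, and only probe sets above the floor on all 4 arrays. Promoter sequences came from RefSeq (GRCm38.p6); 2 of the 5 genes had one.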

Additional observations from a re-analysis of the deposited data

Results flagged for a closer look

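Among the Wnt list genes named by rule and above the floor on all 4 arrays, 3 had log2 ratios of opposite sign in the 2 genotypes or the 2 states. The difference was not tested, because each group has 1 array. Wls was lower with TNF in knockout and higher with TNF in wild-type cells (log2 responses -0.22 and 0.33, difference -0.54). Wnt1 showed the same opposition (-0.97 and 0.13, difference -1.10). Its knockout to wild-type log2 ratio was -0.54 under TNF and 0.56 without it, which is the same difference read by state. The signal of Wnt1 in TNF-treated knockout cells, 96.8, was close to the floor of 92.5. Fosl1 had a knockout to wild-type log2 ratio of -0.48 under TNF and 0.35 without it (difference -0.83). Larger oppositions, of either sign, stood among the remaining Wnt list genes, named after their values were seen. Myc had a knockout to wild-type log2 ratio of -1.29 under TNF and 0.04 without it (difference -1.33). Those of Fzd1, Lrp5 and Fzd7 were of the other sign. The TNF response was 0.33 in knockout and -1.35 in wild-type cells for Fzd1 (difference 1.68), and 0.64 and -0.70 for Lrp5 (difference 1.34). Fzd7 had knockout to wild-type log2 ratios of 0.60 under TNF and -0.66 without it (difference 1.26).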

How the results depend on the processing

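The genotype calls of Sfrp1, Sfrp2 and Frzb held under every alternative in which they were tested, with fitted log2 effects of -2.09 to -1.91, 3.87 to 3.95 and -7.41 to -2.29; that of Sfrp4 ran from -4.04 to -0.31 and was lost with the floor at the 60th percentile (adjusted p = 0.211). No gene of the 5 had a TNF call in any fit, and no called result reversed its direction. Signs turned for 3 values below 2-fold that have no test: the TNF log2 ratio of Sfrp1 in wild-type cells was 0.19 with equal medians (-0.09), and the difference of response was -0.07 for Sfrp2 with equal medians (0.16) and -0.57 for Sfrp4 without a floor (0.77). With only probe sets above the floor on all 4 arrays, Sfrp4 and Frzb were not tested, so 2 of the 5 genes, not 4, were called in each genotype comparison and in the fit. Without a floor 1 gene, Sfrp4, passed 2-fold with TNF in knockout cells (12.2 against 32.4), and none did with it. Counts of 2-fold differences over all probe sets moved with the floor. At the 20th percentile, the 60th percentile and no floor, 2-fold genotype calls were 1423, 388 and 2018 without TNF (734 as reported) and 1679, 422 and 2570 under TNF (837). TNF calls were 549, 80 and 1161 in knockout (153) and 1358, 167 and 2266 in wild-type cells (418). Differences of response were 1349, 94 and 2392 (322). With only probe sets above the floor on all 4 arrays, there were 98 TNF calls in knockout cells, 193 differences of response and 215 TNF calls in the fit. That fit made 96 TNF calls as reported, 493 with equal medians, 177 with quantile normalization and 15 without an intensity trend, where genotype calls were 1049 (1596). Scaling also moved the share of calls that were higher. With equal medians it was 36.0% for genotype under TNF (54.0% as reported), 79.1% for TNF in wild-type cells (47.6%), 37.8% for the difference of response (68.6%) and 78.9% for TNF in the fit (92.7%). With quantile normalization it was 68.3% for TNF in wild-type cells, 49.8% for the difference of response and 80.8% for TNF in the fit. Equal medians moved the median log2 ratio to 0.16 for TNF in wild-type cells (-0.10), -0.11 for genotype under TNF (0.08) and -0.16 for the difference of response (0.05). The causes were not tested. No paired analysis was possible because each group has 1 array and the labels give no replicate numbers, and no array could be left out for the same reason. Signals near the floor limit what can be said of Wnt5a, and of Sfrp4 and Frzb in knockout cells.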
